A study of Rattus norvegicus with 4 samples.

Results

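Proteoglycans are proteins that carry long sulfated sugar chains, the glycosaminoglycans, on a core protein, and 10 genes of such core proteins were followed by their gene symbols in the 2 clones. PC12 is a neural cell line from a rat pheochromocytoma, a tumour of adrenal chromaffin cells. The wtPC12 clone has low and the hrPC12 clone (known earlier as PC12-27) spontaneously high levels of REST, a repressor of neuronal genes. No treatment is given for either clone, the RNA-Seq libraries number 2 per clone, and each REST level is represented by 1 clone, which means that an effect of REST cannot be told apart from anything else in which the clones differ. Of the 25810 genes listed in the counts, 8 of the 10 were found by symbol (Dcn, Bgn, Lum, Vcan, Ncan, Cspg4, Sdc1 and Sdc2), and no row carries the symbol Bcan or Gpc1. A row named PGCB_RAT may by its name be that of brevican, but no source used here pairs it with Bcan, and it was not counted as a member.

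The core proteins fall into classes that sit in different places. Decorin (Dcn), biglycan (Bgn) and lumican (Lum) are small leucine-rich proteoglycans that bind collagen fibrils in the matrix. Versican (Vcan), neurocan (Ncan) and brevican (Bcan) are lecticans, large chondroitin sulfate proteoglycans that bind hyaluronan and, in the brain, build the matrix around neurons. The product of Cspg4, known as NG2, and the syndecans Sdc1 and Sdc2 cross the plasma membrane, while glypican-1 (Gpc1) is held there by a lipid anchor, and syndecans and glypicans carry heparan sulfate that binds growth factors.

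The libraries held 20975027 and 21999191 reads on genes in wtPC12 and 27246502 and 21634943 in hrPC12. Values are reads or normalized counts, that is reads scaled with edgeR's TMM factors to a common library size, given as the mean ± SD of 2 libraries. A count of 0 in a library allows up to 3 reads, or 2.54 to 3.49 normalized counts. Such limits and the intervals given for sums of reads cover counting error only. Rest itself had 37 and 128 reads in wtPC12 and 1139 and 904 in hrPC12 (log2 FC 3.42, standard error 0.57, adjusted p = 0.0115 in edgeR's test). Of 10 markers of chromaffin and sympathetic cells 9 were found, with summed levels of 863305 to 1011080 normalized counts in the wtPC12 and 49265 to 53646 in the hrPC12 libraries, most of the wtPC12 sum being Chgb and Th. Of the 9, all tested, 6 were called lower in hrPC12 by the rule given below, beside 5.46% of all tested genes. These were Th, Dbh, Chgb, Slc18a1, Syp and Phox2a. Not called were Hand2 (log2 FC −0.85), Ddc (0.27) and Gata3 (−0.03).

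Of the 8 genes found, 7 passed the filter of the study, which asks for reads in both clones and for a mean level of 5 normalized counts or more, and Lum, with no read in wtPC12, did not pass. A gene was called when its adjusted p value in edgeR's quasi-likelihood test was under 0.01 and its log2 FC (hrPC12 over wtPC12) was past 2 in either direction. Of the 7 tested genes 1, Ncan, was called lower, where 5.46% of the 13726 tested genes were, and 0 were called higher, where 4.84% were. At an unadjusted p under 0.05, 2 were higher (Vcan and Cspg4) and 2 lower (Dcn and Ncan), against 23.6% and 22.7% of all tested genes. The same 4 genes passed when the limit of the adjusted p was relaxed to 0.05 and that of the fold was kept, a rule met by 7.93% of all tested genes upwards and 7.31% downwards. DESeq2 called Cspg4 higher and Ncan lower, where it called 879 of all 13726 tested genes higher and 909 lower. Both hrPC12 libraries lay above both of wtPC12 in 3 of the 7 genes (37.9% of all genes) and below them in 2 (35.6%). The median log2 FC of the 7 was 0.44, beside 0.06 for all tested genes. Dcn, Vcan, Ncan and Cspg4 reached the filter through the reads of 1 clone, so these counts do not support a change of the group.

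**Figure D1:**
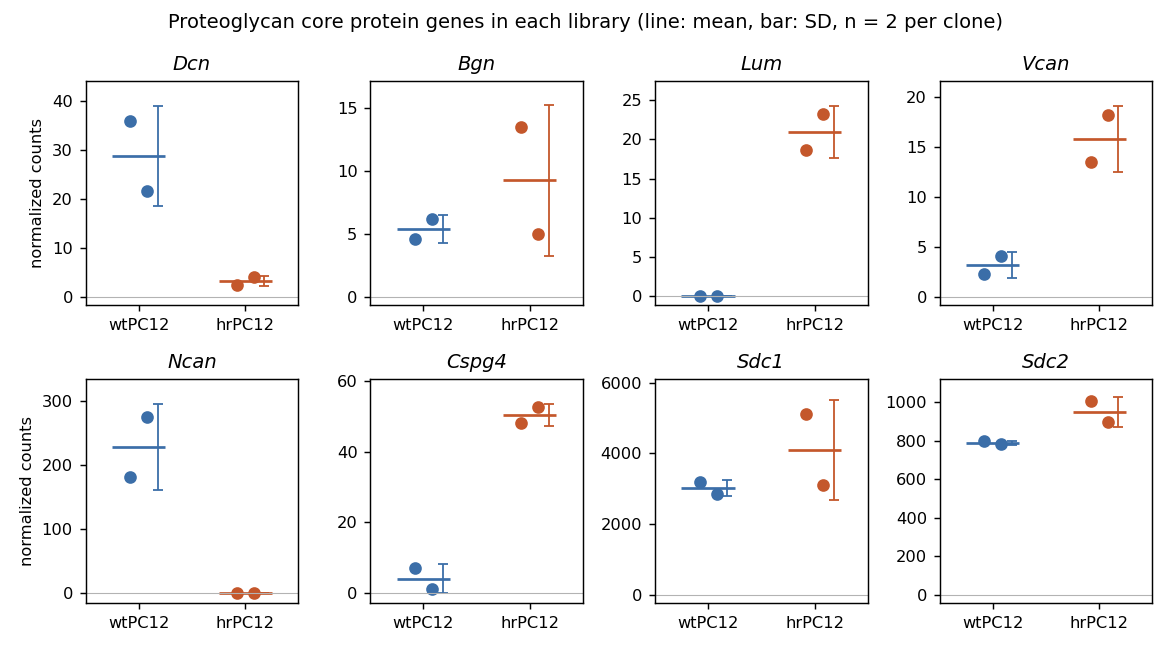
Normalized counts (vertical axes, each with its own linear scale) of the 8 proteoglycan core protein genes found, in wtPC12 (blue) and hrPC12 (red). Each point is 1 library, lines are means and bars SD of 2 libraries. Dcn and Ncan lie lower and Lum, Vcan and Cspg4 higher in both hrPC12 libraries, Sdc2 is separated by a small step, and Bgn and Sdc1 overlap between the clones.

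Among the lecticans, Ncan, which is made mainly in the nervous system, was the gene of the 7 that passed both thresholds. It had 156 and 268 reads in the wtPC12 libraries and 1 and 0 in those of hrPC12. The clones did not overlap, and the hrPC12 reads are within the 3 that a count of 0 allows. In normalized counts the wtPC12 level was 229 ± 66.9 (SD, n = 2) and that of hrPC12 0.423 ± 0.599 (SD, n = 2). From the summed reads Ncan was 503-fold lower in hrPC12, with a 95% counting interval of 89.7 to 19896 set by the 1 read of that clone. The quasi-likelihood fit of edgeR put the log2 FC at −8.62 with a standard error of 0.76 and an adjusted p of 0.00156. Without wtPC12 replicate 2 the adjusted p was 0.0221 in the same test and Ncan was not called, and without hrPC12 replicate 1 it had no read in hrPC12 and was not tested.

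Vcan, the lectican of many connective tissues, had 2 and 4 reads in wtPC12 and 16 and 18 in hrPC12, all low numbers but without overlap. Its normalized counts were 3.22 ± 1.27 (SD, n = 2) and 15.9 ± 3.30 (SD, n = 2). The ratio of the summed reads was 4.78 (95% counting interval 1.98 to 13.9). Its log2 FC of 2.24 (standard error 0.61) had an adjusted p of 0.0435 in edgeR's test and was not called, and over the alternative settings it ranged from 1.76 to 2.70. The log2 FC of Ncan and Vcan therefore have opposite signs, and of these 2 genes Ncan was called. Whether brevican was measured depends on the row PGCB_RAT, which was called lower too.

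The RefSeq promoter table of the rat assembly GRCr8 (250 bases before to 50 after the start of a gene) matched 6 of the 10 genes, Lum, Vcan, Ncan, Bcan, Cspg4 and Sdc1, Vcan with 2 windows. The reads were aligned to an older build, so these windows serve as context. Since the clones differ in REST, the left and right parts of its binding element RE1 were searched on both strands, as exact matches of TTCAGCACC and GACAGCGCC. Of the 33469 promoters of this length 0.356% and 0.359% hold them, and none of the 7 windows held either. With shares this low, a search of 7 windows would rarely find a match. It therefore does not bear on REST binding at these genes, which was not tested. The letters CAGCTG, an E-box of the kind bound by Myod1, are in 15.1% of promoters and in none of the 7 windows. The TATA box letters TATAAA are in 14.2% of promoters and here only in that of Ncan, on the opposite strand. A GC box, GGGCGG, is in 33.1% of promoters and in the windows of Vcan, Ncan, Bcan, Cspg4 and Sdc1. The promoter of Ncan is shown because this gene had the lowest hrPC12 level against wtPC12, with GC box and TATA letters in capitals (GRCr8, chr16:19335657-19335956, plus strand).
Ncan: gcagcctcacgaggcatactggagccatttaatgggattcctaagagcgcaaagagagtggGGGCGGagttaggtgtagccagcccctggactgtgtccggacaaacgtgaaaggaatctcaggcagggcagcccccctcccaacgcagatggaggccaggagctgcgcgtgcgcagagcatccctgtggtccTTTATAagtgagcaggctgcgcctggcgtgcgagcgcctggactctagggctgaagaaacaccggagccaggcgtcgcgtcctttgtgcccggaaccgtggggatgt

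Cspg4, whose product NG2 marks pericytes and glial precursors in tissue, had 6 and 1 reads in wtPC12 and 57 and 52 in hrPC12. Both hrPC12 libraries stood well above both of wtPC12, and they differed little from each other. Its normalized counts were 4.00 ± 4.21 (SD, n = 2) and 50.4 ± 3.08 (SD, n = 2). The summed reads gave a ratio of 13.1 (95% counting interval 6.16 to 33.4). The log2 FC was 3.66 (standard error 0.76), with an adjusted p of 0.0210 in edgeR's quasi-likelihood test, past the fold threshold and short of the p threshold. It was called when RLE factors or plain library totals replaced TMM, when every gene was tested, by DESeq2 (adjusted p = 0.00329), or without hrPC12 replicate 1 (adjusted p = 0.000176). The 6 and 1 reads of wtPC12 set its size, since leaving out wtPC12 replicate 1 gave a log2 FC of 5.43 and leaving out replicate 2 of that clone gave 2.83. Its promoter is shown because Cspg4 had the highest fitted log2 FC of the 7, with 2 GC boxes, both on the opposite strand, in capitals (GRCr8, chr8:66160692-66160991, plus strand).
Cspg4: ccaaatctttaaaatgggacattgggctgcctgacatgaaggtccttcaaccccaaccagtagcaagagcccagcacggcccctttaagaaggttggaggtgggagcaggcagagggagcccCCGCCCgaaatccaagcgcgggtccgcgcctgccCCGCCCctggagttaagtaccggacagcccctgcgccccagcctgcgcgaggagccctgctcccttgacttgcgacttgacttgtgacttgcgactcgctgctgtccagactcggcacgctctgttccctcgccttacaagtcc

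**Figure D2:**
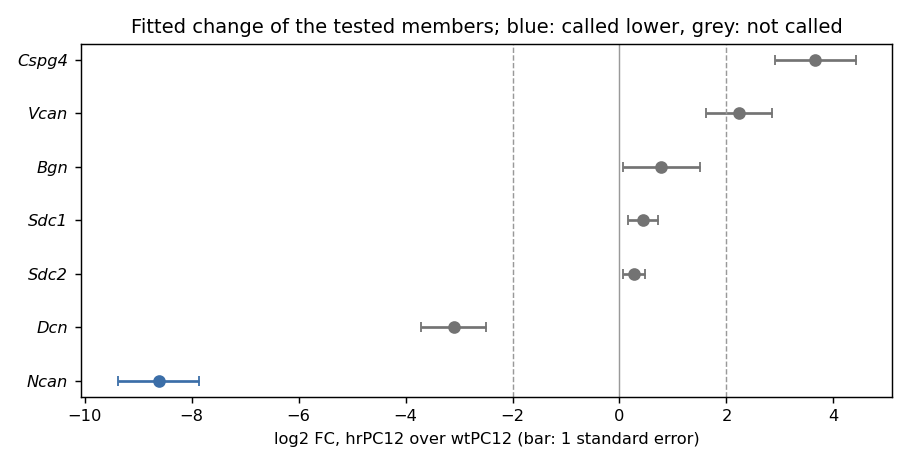
Fitted log2 FC (hrPC12 over wtPC12, horizontal axis) of the 7 tested genes, with bars of 1 standard error and dashed lines at the fold threshold of 2 in either direction. Ncan (−8.62, blue) was called lower, while Dcn (−3.10), Vcan (2.24) and Cspg4 (3.66) lie past the fold threshold without passing that of the adjusted p value, and Sdc1, Sdc2 and Bgn lie within it.

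The small leucine-rich genes did not share a direction. Dcn, whose product binds collagen and TGF-beta, had 31 and 21 reads in wtPC12 and 3 and 4 in hrPC12, without overlap. In normalized counts this was 28.8 ± 10.2 (SD, n = 2) and 3.29 ± 1.07 (SD, n = 2), and the summed reads were 8.80-fold lower in hrPC12 (95% counting interval 3.98 to 23.0). The log2 FC of −3.10 (standard error 0.61) had an adjusted p of 0.0182 in edgeR's test and was not called. It was called with RLE factors (adjusted p = 0.00890) or with every gene tested (0.00872 in edgeR's test), and its adjusted p over all alternatives ranged from 0.00872 to 0.213.

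Lum, the core protein gene of a keratan sulfate proteoglycan of cornea and other fibrous tissue, had no read in either wtPC12 library and 22 and 23 in hrPC12. With wtPC12 set to the floor of 3 reads per library, the hrPC12 level of 20.9 ± 3.29 normalized counts (SD, n = 2) was at least 6.37-fold higher. The filter kept Lum out of the test. Where it was tested, with every gene that had a read or with edgeR's filterByExpr, it was called higher (adjusted p = 0.00422 and 0.00907 in edgeR's quasi-likelihood test). Bgn, the close relative of Dcn, had 4 and 6 reads in wtPC12 and 16 and 5 in hrPC12, and the clones overlapped. The fit gave a log2 FC of 0.78 with a standard error of 0.72 (adjusted p = 0.423 in edgeR's test), and the counting interval of its ratio, 0.799 to 4.21, includes no change. Without hrPC12 replicate 1 its hrPC12 level, 5.06 normalized counts, lay below the wtPC12 mean of 5.42.

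In the RefSeq order of the genome Dcn, Lum, Kera and Epyc, which all code for small leucine-rich proteins, follow each other among the genes that the counts list. They were unlike in the reads. Dcn had more reads in wtPC12, Lum and Epyc had reads in hrPC12 alone (Epyc 14 and 9), and Kera had 0 in every library. The gene on the other side of Dcn, Btg1, had 1297 and 1088 reads in wtPC12 and 762 and 719 in hrPC12 (log2 FC −0.94, adjusted p = 0.0384 in edgeR's test). Epyc and Btg1 were singled out after their values were seen. The promoter of Lum is shown as that of the member read in hrPC12 alone; none of the motifs is in it, and its 6 CG pairs make an observed to expected ratio of 0.313, against 0.677 for Ncan, 0.633 for Cspg4 and a median of 0.392 over all promoters (GRCr8, chr7:34245456-34245755, plus strand).
Lum: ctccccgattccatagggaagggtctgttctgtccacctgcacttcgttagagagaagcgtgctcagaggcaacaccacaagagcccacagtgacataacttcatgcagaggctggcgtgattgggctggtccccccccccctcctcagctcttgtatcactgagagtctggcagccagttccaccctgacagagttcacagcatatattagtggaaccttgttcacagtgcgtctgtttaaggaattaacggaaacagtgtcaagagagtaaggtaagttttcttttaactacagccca

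The syndecan genes were read at 684 reads or more in every library. Sdc2 had 684 and 757 reads in wtPC12 and 1184 and 884 in hrPC12, or 788 ± 11.2 (SD, n = 2) and 948 ± 76.3 (SD, n = 2) normalized counts. The hrPC12 libraries lay above those of wtPC12 by a small step, and the log2 FC of 0.27 had a standard error of 0.20 and an adjusted p of 0.341 in edgeR's test, lying between 0.18 and 0.33 over the alternatives. Sdc1, which in the body is best known from epithelia and plasma cells, had 2732 and 2777 reads in wtPC12 and 6025 and 3069 in hrPC12. The hrPC12 libraries differed from each other, and the lower of them, at 3105 normalized counts, lay below wtPC12 replicate 1 at 3178. For Sdc1 the fit gave a log2 FC of 0.44 with a standard error of 0.28 (adjusted p = 0.259 in edgeR's test). It was 0.04 without hrPC12 replicate 1 and 0.71 without hrPC12 replicate 2. These values do not show that the syndecan genes were expressed alike in the clones. The Sdc2 libraries did not overlap, but neither gene passed the test.

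The difference between the hrPC12 libraries at Sdc1 and Bgn extended to the genes beside them. In normalized counts of Sdc1, hrPC12 replicate 1 exceeded replicate 2 by 0.72 on the log2 scale, and the median of the 7 nearest tested genes was 0.82. For Bgn it was 1.42 in the gene and 0.83 in its neighbours. Next to Sdc1, Laptm4a had 29720 and 14045 reads in the hrPC12 libraries and Pum2 had 8248 and 3681. For Dcn, Lum, Vcan, Ncan, Cspg4 and Sdc2 the medians of the neighbours lay between −0.16 and 0.03. An absolute log2 ratio as large as that of Sdc1 was found in 24.0% of all tested genes. This share takes in genes of every level, also those with few reads or with none in 1 hrPC12 library. The part of this library difference in the values of Sdc1 and Bgn was not tested beyond leaving the library out, which left Bgn under the filter.

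**Figure D3:**
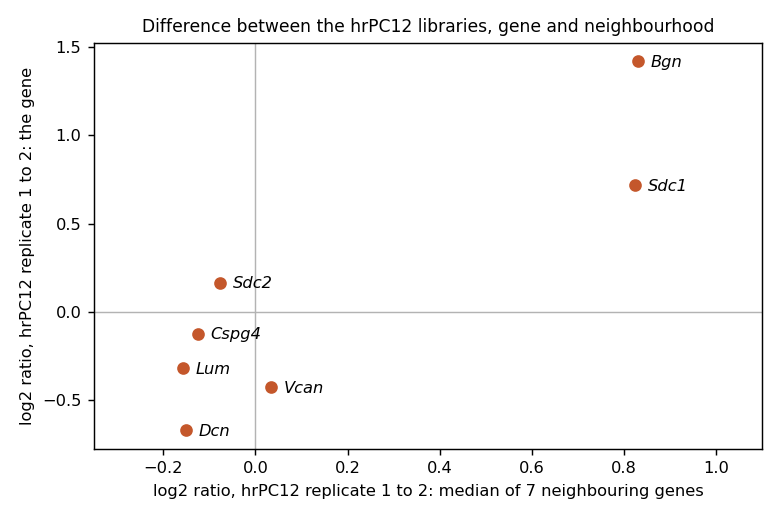
Difference between hrPC12 replicates 1 and 2 as a log2 ratio of normalized counts, for 7 of the proteoglycan genes (vertical axis) against the median of their 7 nearest tested genes in the RefSeq order (horizontal axis). Sdc1 (0.82 in its neighbours) and Bgn (0.83) stand apart from the others, and Ncan is not drawn because it had 0 reads in hrPC12 replicate 2.

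Around the core proteins, 140 genes that make, modify, bind or cut proteoglycans were listed, of which 117 were found and 85 tested. Of these 13 were called higher and 7 lower in hrPC12, in edgeR's test with p values adjusted over all genes, where 4.84% and 5.46% of all tested genes were called. In 6 of the 13 (Fmod, Ogn, Cd44, Chst15, Hs3st3a1 and Adamts15) and 4 of the 7 (Spock1, Hs3st6, Tnr and Rtn4r) the lower clone was under 5 normalized counts, so that they reached the filter through the other clone and had to differ. The median log2 FC of the 85 tested partner genes, listed with earlier results known, was 0.75, beside 0.06 for all tested genes. Without wtPC12 replicate 2 edgeR called 0 in either direction, as it did among all genes, with 34 higher and 19 lower at an unadjusted p under 0.05. The counts at an unadjusted p in the lists stand beside 23.6% of all tested genes higher and 22.7% lower. In 10 found genes no library held a read, 10 others were read in hrPC12 alone and 3 in wtPC12 alone.

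**Figure D4:**
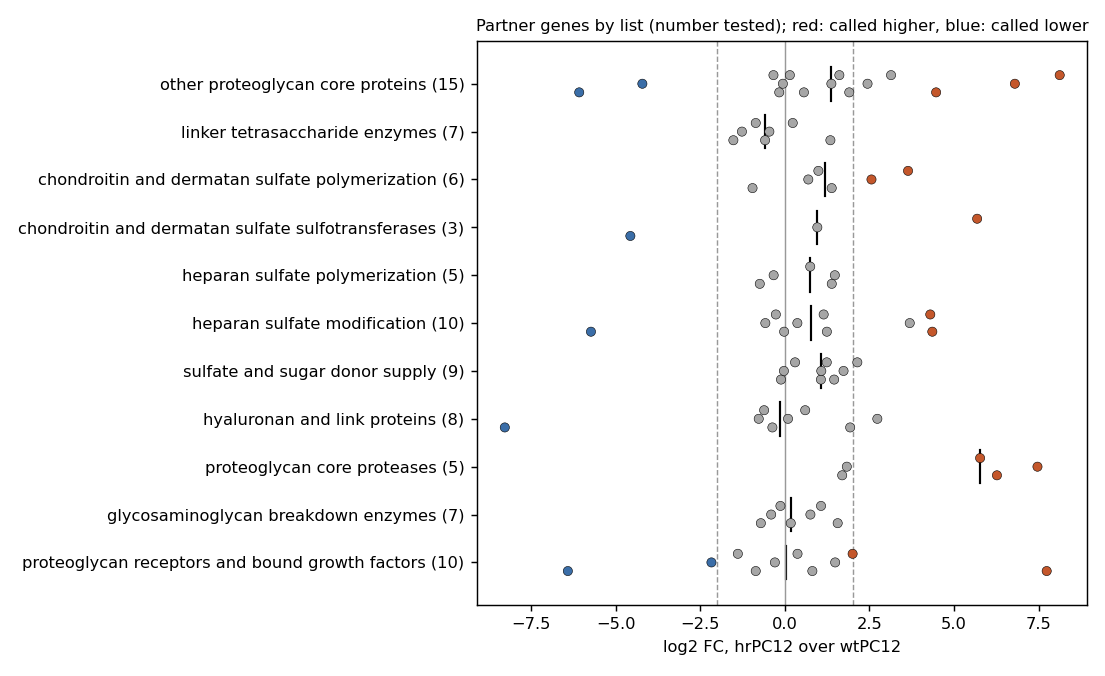
Fitted log2 FC (hrPC12 over wtPC12) of the tested genes of each list, 1 point per gene, with red points called higher, blue points called lower, grey points not called, black ticks at the list median and dashed lines at a log2 FC of 2 in either direction. Called genes of both directions occur among the other core proteins, and the 3 called proteases all lie to the right.

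Of 34 other proteoglycan core proteins 28 were found and 15 tested, with 3 called higher and 2 lower. Over all tested genes 4.84% were called higher and 5.46% lower. Fmod, Ogn, Cd44 and Spock1 reached the filter through 1 clone, so these counts do not support a change of the list. Fibromodulin (Fmod), which like Dcn and Lum is a small leucine-rich protein of collagen fibrils, rose from 2.84 ± 2.56 to 804 ± 13.2 normalized counts (SD, n = 2), and its log2 FC was 8.13 ± 0.55 (standard error). Cd44, the hyaluronan receptor that can carry chondroitin sulfate, rose from 2.77 ± 1.01 to 319 ± 0.896 (SD, n = 2), and Ogn (osteoglycin) had a log2 FC of 4.47. The genes called lower were those of the testicans Spock1, from 197 ± 26.4 to 2.79 ± 0.351 normalized counts (SD, n = 2), and Spock2, from 976 ± 490 to 52.4 ± 4.63 (SD, n = 2). Ptprz1, a receptor phosphatase that the brain also makes as a secreted chondroitin sulfate proteoglycan, had 12 and 12 reads in wtPC12 and none in hrPC12, at least 4.72-fold lower, and was chosen with its values known. Among the heparan sulfate carriers of the membrane, Sdc4 had 1306 and 1075 reads in wtPC12 and 1183 and 1060 in hrPC12 (log2 FC −0.34, not called), and Gpc2, Gpc3 and Gpc4 had at most 6 reads in any library.

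The sugar chains begin with a linker of 4 sugars common to chondroitin and heparan sulfate. Of its 7 genes 0 were called in either direction by edgeR. At an unadjusted p under 0.05, 1 was higher and 4 lower, beside 23.6% and 22.7% of all tested genes. Fam20b, the kinase that phosphorylates the first sugar, had 3327 and 2416 normalized counts in wtPC12 and hrPC12 (log2 FC −0.46), and B3gat3, which adds the last sugar, 3278 and 2180 (log2 FC −0.59). Of the 6 tested genes of chondroitin and dermatan sulfate polymerization 2 were called higher, beside 4.84% of all tested genes. Csgalnact2, which starts the chondroitin chain, rose from 525 ± 40.4 to 3094 ± 103 (SD, n = 2), and Dse, the epimerase that turns chondroitin into dermatan sulfate, from 235 ± 36.2 to 2933 ± 155 (SD, n = 2), and its log2 FC was 3.64 ± 0.22 (standard error). Chsy3, a chondroitin synthase, had 54 and 61 reads in wtPC12 and none in hrPC12, at least 22.5-fold lower, and was chosen with its values known.

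Of the 3 tested genes of chondroitin and dermatan sulfate sulfotransferases 1 was called higher and 1 lower, beside 4.84% and 5.46% of all tested genes. Chst15 reached the filter through hrPC12, so these counts do not support a change of the list. Chst12 (log2 FC 0.96) was not called. Chst15, which adds a second sulfate to a sulfated chain, had 3 and 3 reads in wtPC12 and 240 and 145 in hrPC12 (log2 FC 5.68, standard error 0.48, adjusted p = 0.00145 in edgeR's test). Chst11, a 4-O-sulfotransferase, had 101 and 282 reads in wtPC12 and 6 and 12 in hrPC12 (log2 FC −4.57, standard error 0.71, adjusted p = 0.00957 in edgeR's test).

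For heparan sulfate, edgeR called 0 of the 5 polymerization genes. At an unadjusted p under 0.05, 3 were higher and 1 lower, beside 23.6% and 22.7% of all tested genes. Ext2, a subunit of the polymerase, had 4505 and 3571 normalized counts in wtPC12 and hrPC12 (log2 FC −0.33), and Extl3 had 1397 and 2345 (log2 FC 0.75). Of the 10 tested modification genes 2 were called higher and 1 lower, beside 4.84% and 5.46% of all tested genes. Sulf2, a secreted enzyme that removes 6-O-sulfates from finished chains, rose from 71.4 ± 9.22 to 1466 ± 7.12 normalized counts (SD, n = 2), and its log2 FC was 4.36 ± 0.25 (standard error). Of the 3-O-sulfotransferase genes, Hs3st3a1 was called higher, with 3 and 6 reads in wtPC12 and 125 and 90 in hrPC12. Hs3st6 was called lower, with 31 and 26 in wtPC12 and 0 and 1 in hrPC12. Both reached the filter through 1 clone. The most read of these genes, Hs3st3b1, had 16 and 67 reads in wtPC12 and 625 and 607 in hrPC12 (log2 FC 3.69). Hs3st2 had a log2 FC of −0.58, and neither was called. Of the 9 tested genes that supply sulfate and sugar donors edgeR called 0. At an unadjusted p under 0.05, 4 were higher and 0 lower, beside 23.6% and 22.7% of all tested genes. Ugp2, which makes UDP-glucose, had 2384 and 5615 normalized counts (log2 FC 1.24), and Slc35b2, which brings the sulfate donor into the Golgi, 2166 and 2119 (log2 FC −0.03).

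Among the genes of hyaluronan and of the proteins that link it to lecticans, 1 of 8 tested was called. It was lower, where 5.46% of all tested genes were. Tnr, which codes for tenascin-R, a partner of lecticans around neurons, had 448 and 2123 reads in wtPC12 and 2 and 7 in hrPC12 (log2 FC −8.29, standard error 1.09, adjusted p = 0.00580 in edgeR's test). The link protein gene Hapln4, which lies near Ncan in the RefSeq order, had 2310 and 2731 reads in wtPC12 and 1787 and 1680 in hrPC12, a log2 FC of −0.78 beside the −8.62 of Ncan, and was not called. Hapln1, the neighbour of Vcan, had 3 and 0 reads in hrPC12 and none in wtPC12.

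Of the 5 tested proteases that cut lecticans or shed membrane core proteins 3 were called higher, beside 4.84% of all tested genes. The list was chosen with earlier results known, and Adamts15 reached the filter through hrPC12 alone and had to differ. The count therefore does not support a change of the group. Adamts9 rose from 10.8 ± 2.16 to 1952 ± 42.6 normalized counts (SD, n = 2), Adamts1 from 9.74 ± 2.25 to 542 ± 68.1 (SD, n = 2), and Adamts15 had 1 and 0 reads in wtPC12 and 64 and 49 in hrPC12. Adam17, a sheddase of the membrane, had a log2 FC of 1.69 and was not called. Of the 7 tested enzymes that break down the chains edgeR called 0. At an unadjusted p under 0.05, 2 were higher and 0 lower, beside 23.6% and 22.7% of all tested genes. The lysosomal Hexa had 4119 and 3752 normalized counts (log2 FC −0.13), and Arsb 1642 and 2766 (log2 FC 0.75). Hpse2, a relative of heparanase, had 84 and 57 reads in hrPC12 and none in wtPC12, at least 19.6-fold higher, and was chosen with its values known.

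Of 10 tested receptors and growth factors that bind proteoglycans, 2 were called higher and 2 lower, beside 4.84% and 5.46% of all tested genes. Tgfb2, a growth factor that decorin and biglycan can bind, rose from 47.9 ± 5.16 to 10287 ± 329 normalized counts (SD, n = 2), and Ptn (pleiotrophin), a ligand of syndecans and of PTPRZ1, from 3031 ± 579 to 12133 ± 346 (SD, n = 2), a log2 FC of 2.00 that lies at the threshold. The Nogo receptor genes Rtn4r (71 and 94 reads in wtPC12, 1 and 1 in hrPC12) and Rtn4rl1 (664 and 708, then 232 and 134), which also act as receptors of chondroitin sulfate proteoglycans, were called lower.

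Several of these genes are also used as markers of other cells, and the levels of such markers are given beside them. In bulk RNA, fewer cells of a type and less RNA per cell cannot be told apart. Of 8 fibroblast markers 7 were found, and their summed levels were 16283 to 18046 normalized counts in wtPC12 and 92817 to 97344 in hrPC12. Of the 5 tested, 3 were called higher (Col1a1, Col1a2 and Col3a1), beside 4.84% of all tested genes. Col1a1 and Col1a2 had wtPC12 means of 4.19 and 2.91 normalized counts, so they reached the filter through hrPC12 and had to differ. The count therefore does not support a change of the list. Thy1, which neurons also make, held most of the wtPC12 sum with 15413 and 15713 reads, had 10078 and 8573 in hrPC12 and was not called (log2 FC −0.99). Col3a1 held most of that of hrPC12 (98991 and 87112). Pdgfra, a defining fibroblast marker that glial precursors share, had 4 to 8 reads in every library, and Postn had none in wtPC12 and 51 and 44 in hrPC12. Of the markers of glial cells and their precursors, Sox10 and Gpr17 had 0 reads in every library, and Olig2 had 11 and 10 reads in wtPC12 and none in hrPC12. Of 6 pericyte markers 4 were found (64.9 to 108 and 515 to 526), with Pdgfrb, which made up nearly all of the hrPC12 sum, called higher and Rgs5 at 0 in hrPC12. Des had 62 and 36 reads in wtPC12 and 21 and 9 in hrPC12 and was not called (log2 FC −1.99). Of 6 endothelial markers 4 were found (95.4 to 115 and 619 to 627), with Vwf called higher and Pecam1 at no more than 2 reads. Vwf made up most of the hrPC12 sum, with 57 and 79 reads in wtPC12 and 666 and 553 in hrPC12. Tek (log2 FC 1.31) and Cdh5 (−0.45) were tested and not called. The 8 leukocyte markers summed to 40.2 to 43.0 and 108 to 111, with Ptprc at 1 read in all. Most of the hrPC12 sum was Cd68, with 20 and 28 reads in wtPC12 and 89 and 86 in hrPC12 (log2 FC 1.63). Spi1 had 3 and 3 reads in wtPC12 and 24 and 14 in hrPC12 (log2 FC 2.36). Cd3e, the other marker tested, overlapped between the clones, and none was called. The part of other cell types in the values of the proteoglycan genes was not tested.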

How the data were processed

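RNA of the wtPC12 and hrPC12 clones was sequenced as paired-end reads on an Illumina HiSeq instrument. The submitters' processing notes name the rat build rn4, TopHat2 2.0.4, HTSeq 0.5.3 and DESeq 1.9.12. The authors deposited raw counts of reads per gene for each library, without normalization. Reads on genes were 37.9% to 41.3% of those listed, and the 5 totals of other reads were left out. The library kit does not mark strand, so reads of a gene and of an antisense partner cannot be told apart, and the strand setting of the counting is not given in the sources used here. A table of the authors' own comparison (means, fold changes, p values) was not used.

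Counts were normalized with TMM factors and compared in R 4.3.3 with edgeR 4.0.16 (glmQLFit and glmQLFTest, legacy option on, p values adjusted by Benjamini-Hochberg across the 13726 genes tested). The study used DESeq, and its filter and thresholds were kept. Standard errors are those implied by the F statistic. DESeq2 1.42.0 was an alternative. With 2 libraries per clone, a permutation test of 1 gene cannot give a 2-sided p under 0.333. Nothing in the labels says that the libraries come from separate cultures, so p values measure the spread between these libraries, which may be technical. Intervals of ratios of summed reads are exact (Clopper-Pearson) at 95%. The fits were tested on simulated counts, where edgeR and DESeq2 called all 100 genes changed 8-fold and all 100 changed 64-fold. Genes at mean levels as low as those of Dcn, Vcan and Bgn were not changed. The simulated dispersion was below the common dispersion of 0.0745 in these data. The simulation therefore does not show how changes of such genes are found here.

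Members and lists were chosen with earlier results of these data known. Named are the 10 members, Rest, and in each list the called genes, with values for those with the largest log2 FC among genes whose higher clone reached 100 normalized counts, or, where 0 were called, the 2 genes of highest level. Ogn, Hs3st3a1, Hs3st6, Adamts15 and Rtn4r were called but stayed under 100 in the higher clone, and are given with values too. Markers are given by sums and by those at 0. A chromaffin and a glial marker are not reported here and were left out of their lists, and no sum is given for the glial list, since a sum without that marker would not stand for it. Other genes named were chosen after their values were seen. Of the partner genes 1 was matched by a RefSeq synonym. No transcript lengths were used, so levels are not compared between genes.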

Additional observations from a re-analysis of the deposited data

How the results depend on the processing

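The number of members called depended on the setting. Against 0 higher and 1 lower, edgeR's RLE factors gave 1 and 2, library totals alone, edgeR's filterByExpr and DESeq2 gave 1 and 1, every gene with a read gave 2 and 2, and an adjusted p under 0.05 gave 2 and 2. With the legacy option off, a prior count of 2, glmTreat or an adjusted p under 0.01 alone the counts stayed at 0 and 1. Calls over all genes moved too, from 665 higher and 749 lower to 870 and 901 with RLE factors and 902 and 835 with library totals. They were 873 and 844 with filterByExpr (13540 tested), 879 and 909 with DESeq2, and 1127 and 977 with every gene (18416 tested). An adjusted p under 0.05 gave 1088 and 1003. Where the member counts stayed, they were 720 and 781 with the legacy option off and 816 and 980 at an adjusted p under 0.01 alone. With each library left out in turn, members called ranged from 0 to 1 higher and from 0 to 1 lower, partner genes from 0 to 16 and from 0 to 7, and all genes from 0 to 962 and from 0 to 859. The lone library of a clone was then assumed to vary like those of the other, and the counts of 0 over all genes came from leaving out wtPC12 replicate 2, where edgeR gave 3234 higher and 3564 lower at an unadjusted p under 0.05. The cause was not tested. Over all genes glmTreat, which tests for a log2 FC past 2, left 321 higher and 353 lower, and 8 and 2 of the partner genes. Wherever a member was tested, the sign of its log2 FC was that of the values in the report. Bgn was not tested with filterByExpr or without hrPC12 replicate 1, where its level in the remaining hrPC12 library, 5.06 normalized counts, lay below the wtPC12 mean of 5.42, and Ncan was not tested without hrPC12 replicate 1. No paired analysis was possible because the labels number the libraries of the clones differently. Depth limits the members with few reads in a clone (Dcn, Bgn, Lum, Vcan, Ncan and Cspg4).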

Other observations

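A row of the counts named PGCB_RAT, a name in the style of protein databases, may be that of brevican (Bcan), but no source used here pairs it with a gene symbol, and it was not taken as a member. It had 1195 and 1288 reads in wtPC12 and 139 and 124 in hrPC12, and was called lower in edgeR's test (adjusted p = 0.000803), where its log2 FC was −3.48 with 0.23 as standard error. A row named SDC3_RAT, not paired either, had 990 and 1810 reads in wtPC12 and 612 and 649 in hrPC12 (log2 FC −1.36, standard error 0.31) and was not called. Both rows were chosen after their values were seen.

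Beside Cspg4 in the RefSeq order, Lingo1, which codes for a partner of the Nogo receptor, had 260 and 313 reads in wtPC12 and 0 and 3 in hrPC12, and was called lower (log2 FC −7.68, adjusted p = 0.00297 from edgeR's test), while Cspg4 had more reads in hrPC12. It was chosen after its values were seen.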
